A study of Mus musculus with 17 samples.

Results

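The 10 genes described here serve the responses of cells to unfolded proteins: Hspa1a, Hspa1b, Hsph1, Dnajb1, Hsp90aa1 and Hspa8 of the heat shock and cytosolic chaperone system, Hspa5 and Xbp1 of the endoplasmic reticulum, and Atf4 and Ddit3 of the integrated stress response. They were chosen by name, by a rule that uses no measured value but with earlier results of these data known, and all 10 were present among the 26131 genes counted. Nuclear RNA was counted in single nuclei sorted from frozen posterior brain of 17 female mice aged 2.3 months, all of the Human TfR knock-in strain with the genotype hTfR KI HOM, in which the transferrin receptor (TfR) carries human sequence. Each mouse received 4 intravenous doses over 24 days, and brains were taken 72 hours after the last dose. The groups were saline (4 mice), Malat1 ASO, a free antisense oligonucleotide against the nuclear long noncoding RNA Malat1, at 2 mg per kg, which the design text calls equivalent in oligonucleotide (4 mice), anti-TfR:Malat1, that kind of oligonucleotide on an antibody to TfR, at 50 mg per kg (6 mice), and OTV:Malat1, in which a TfR-binding vehicle carries it, at 50 mg per kg (3 mice). All groups, saline included, carry the knock-in. The labels number the samples within a group and do not state that each is a separate mouse; they are called animals here, and p values measure only the spread between these samples. The 3 comparisons with saline share the same saline animals.

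Cells meet misfolded proteins in the cytosol by releasing heat shock factor 1 from chaperones, and the freed factor binds heat shock elements and drives transcription of chaperone genes. Misfolding in the endoplasmic reticulum is sensed by the membrane proteins ATF6, IRE1 and PERK, which act through the factors ATF6, XBP1 and ATF4. ATF4 also answers other kinases of the integrated stress response, and it activates Ddit3, which encodes CHOP. In brain, Hspa8 and Hsp90aa1 are made without stress, whereas Hspa1a and Hspa1b are kept low and rise sharply in stress.

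The 17 libraries held 55393588 to 79866411 UMIs, that is unique transcript molecules, in 13841 to 18365 nuclei. Levels are given as CPM, the UMIs of a gene per 1000000 UMIs of the nuclei summed. Malat1, the target of the oligonucleotide, stood at 68506 ± 15610 CPM in saline (SD, n = 4), 65528 ± 13538 in Malat1 ASO (n = 4), 59163 ± 9962 in anti-TfR:Malat1 (n = 6) and 40023 ± 5719 in OTV:Malat1 (n = 3). Its difference between OTV:Malat1 and saline was -0.84 on the log2 scale (SE 0.20), with an adjusted p of 1.00 by edgeR. Within labels the target was called in OTV:Malat1 against saline in oligodendrocytes (-2.79, SE 0.19, adjusted p = 8.74e-08 by edgeR), astrocytes (-1.65, SE 0.17, adjusted p = 5.79e-07) and microglia (-0.71, SE 0.13, adjusted p = 0.0462), and between the conjugates in oligodendrocytes (-2.18, SE 0.18) and astrocytes (-0.98, SE 0.15). The microglia call was lost with only the 2 groups compared, without doublets, or with labels joined with clusters. That call and the astrocyte call between the conjugates were also lost in at least 1 fit without 1 animal. The deposited metadata name 4 batches, of 3, 4, 5 and 5 animals, and the labels do not say what a batch was; batch 1 held no OTV:Malat1 animal. Any 2 libraries shared 50 to 110 cell barcodes. One library stood apart: OTV:Malat1 replicate 2, of batch 3, held the highest level of 7 of the 10 genes and of 31.1% of all 21375 genes tested over all nuclei, against 1.18% to 9.53% of those genes in each of the other 16. Its summed level of 83 cytosolic ribosomal protein genes was 4029 CPM against 1564 to 3098 CPM in the other 16 libraries, and its Fos level, an immediate early gene, was 27.3 CPM against 6.75 to 26.7 CPM. In nuclei labelled Neurons the summed level of 8 neuronal markers was 12826 CPM, and in those labelled Oligodendrocytes that of 6 oligodendrocyte markers was 14670 CPM. The labels Astrocytes (7625 CPM), Microglia (6847 CPM) and Perivascular macrophages (6696 CPM) were likewise highest for their own marker lists. The small Glia label, used in no test, was highest for choroid plexus and ependyma markers (2900 CPM), then for neuronal (2076 CPM) and astrocyte markers (1648 CPM). These lists hold 4, 8 and 6 markers, so their sums are not strictly alike, and they mark no single cell type for this label. The Vascular cells label mixed endothelial (3214 CPM), mural (3099 CPM) and fibroblast-like (3114 CPM) markers.

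Letters that match stress elements were found in the start regions of 4 of the 8 genes searched (Hspa1a, Hspa1b, Hsph1 and Hspa5). The stretches set side by side the inducible pair, a chaperone gene with a full heat shock element, and the main endoplasmic reticulum chaperone. They are the 250 bases before the start site of Hspa1a (chr17:34972157-34972406, minus strand), Hspa1b (chr17:34959239-34959488, minus strand) and Hspa5 (chr2:34771840-34772089, plus strand). For Hsph1 a stretch of 27 bases is shown (chr5:149636281-149636307, minus strand), which begins after both RefSeq start sites. All are from RefSeq on GRCm38.p6. Capitals mark heat shock elements of 2 units and CCAAT boxes in the Hspa1 pair. In Hspa5 they mark the endoplasmic reticulum stress element and CCAAT boxes. In Hsph1 they mark a heat shock element of 3 units after the start site, at bases 15 to 27 or 36 to 48 from the 2 RefSeq starts. Hsph1 also had an element of 2 units before the start site, at -54 to -47 or -33 to -26, outside the stretch shown.
Hspa1a: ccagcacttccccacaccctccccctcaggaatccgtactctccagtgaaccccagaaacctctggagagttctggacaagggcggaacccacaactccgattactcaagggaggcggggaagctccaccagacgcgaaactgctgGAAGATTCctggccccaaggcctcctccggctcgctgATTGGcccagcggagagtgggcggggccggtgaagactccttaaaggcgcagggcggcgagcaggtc
Hspa1b: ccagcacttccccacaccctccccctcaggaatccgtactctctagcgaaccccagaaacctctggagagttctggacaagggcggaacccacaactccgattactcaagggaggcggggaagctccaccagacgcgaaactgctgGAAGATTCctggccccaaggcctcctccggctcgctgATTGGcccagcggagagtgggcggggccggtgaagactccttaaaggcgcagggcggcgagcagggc
Hspa5: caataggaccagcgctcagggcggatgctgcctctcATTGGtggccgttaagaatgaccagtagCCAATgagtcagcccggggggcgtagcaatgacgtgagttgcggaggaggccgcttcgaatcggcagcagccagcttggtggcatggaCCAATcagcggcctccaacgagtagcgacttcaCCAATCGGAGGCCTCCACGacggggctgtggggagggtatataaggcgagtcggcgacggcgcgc
Hsph1: ctgcagaTTCTGGAAAGTTCtcctcag
Hspa1a and Hspa1b were the same at 247 of these 250 bases (98.8%).

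RefSeq windows of 300 bases, reaching from 250 bases before to 50 bases after a start site, were at hand for 8 of the 10 genes, and Hspa8 and Hsp90aa1 were not among them. Both strands were searched. A heat shock element of 3 alternating GAA and TTC units with 2 bases between units occurred in 0.603% of all 32851 windows and, among the members, in Hsph1. The 2-unit form (GAANNTTC or TTCNNGAA), which the 3-unit form contains, occurred in 15.1% of windows and in those of Hspa1a, Hspa1b and Hsph1. The endoplasmic reticulum stress element, CCAAT and CCACG with 9 bases between, occurred in 0.119% of windows and in that of Hspa5, 65 to 47 bases before its start site, where it overlaps 1 of its 4 CCAAT boxes. The CCAAT box alone was in 37.4% of windows. Neither the amino acid response element (TGATGNAA, in 3.97% of windows) nor the second endoplasmic reticulum stress element (ATTGG and CCACG with 1 base between, in 0.0365%) was found in a member window. These matches describe letters in the windows and carry no evidence of binding.

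Hspa1a and Hspa1b are also alike over part of their transcripts. They lie on chromosome 17 at 34969190 to 34972156 and 34956436 to 34959238 (mm10, GENCODE, both on the minus strand). Of all 50-base windows of the Hspa1a transcripts, 58.8% also occurred in Hspa1b, whereas 0% did within the last 600 bases. The sources used here do not say how reads that fit both genes were counted, so the split between these genes is uncertain.

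The inducible heat shock genes were near the floor in every animal. Hspa1a, the stress-inducible HSP70, stood at 0.300, 0.647, 0.574 and 0.322 CPM in the 4 saline animals and at 0.623, 0.553, 0.693 and 0.592 CPM in the 4 Malat1 ASO animals. In anti-TfR:Malat1 it ran from 0.398 CPM through a median of 0.498 to 0.814 CPM, and the 3 OTV:Malat1 animals had 0.643, 0.802 and 0.397 CPM. These levels rest on 18 to 65 UMIs per animal, and each treated group overlapped saline. Its neighbour Hspa1b, which encodes a nearly identical HSP70, had 0.143, 0.323, 0.351 and 0.197 CPM in saline, and 0.135, 0.231, 0.402 and 0.244 CPM in Malat1 ASO. It ran from 0.0854 through 0.232 to 0.422 CPM in anti-TfR:Malat1 and had 0.280, 0.425 and 0.271 CPM in OTV:Malat1. These levels rest on 6 to 29 UMIs of Hspa1b per animal, and again each treated group overlapped saline. Of all genes with a UMI in either group, 0.69%, 0.385% and 3.76% had ranges apart from saline, in the same order of groups. Overlap is thus not a result about this pair.

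Dnajb1 encodes an HSP40 that hands clients to HSP70. It stood at 4.09, 4.64, 3.33 and 5.12 CPM in saline, 7.05, 3.49, 2.30 and 4.15 CPM in Malat1 ASO, 2.68 through 3.11 to 4.73 CPM in anti-TfR:Malat1, and 2.71, 5.36 and 3.36 CPM in OTV:Malat1. The highest and the lowest of all 17 values were both in the Malat1 ASO group, in replicates 1 and 3. Hsph1, an HSP110 that exchanges the nucleotide of HSP70, had 35.6, 28.0, 20.6 and 33.0 CPM in saline, 33.0, 25.6, 16.8 and 32.2 CPM in Malat1 ASO, 19.3 through 24.7 to 32.8 CPM in anti-TfR:Malat1, and 23.4, 28.3 and 21.2 CPM in OTV:Malat1. The lowest saline and the lowest Malat1 ASO values of Hsph1 both came from batch 3.

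Of the chaperones made without stress, Hspa8, the constitutive HSC70, stood at 74.6, 100.4, 81.4 and 61.3 CPM in saline and at 98.1, 55.1, 68.0 and 66.0 CPM in Malat1 ASO. In anti-TfR:Malat1 it ran from 40.1 through 80.3 to 122 CPM. The OTV:Malat1 animals had 66.5, 166 and 70.1 CPM, so that 1 of the 3 lay above every other library while the others lay inside the saline range. Hsp90aa1, the inducible-type cytosolic HSP90, had 93.6, 101, 83.4 and 73.2 CPM in saline, 112, 72.0, 75.3 and 90.0 CPM in Malat1 ASO, 54.1 through 95.1 to 112 CPM in anti-TfR:Malat1, and 79.2, 147 and 79.1 CPM in OTV:Malat1. The same OTV:Malat1 animal was again the highest of all 17.

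Hspa5 encodes BiP, the HSP70 of the endoplasmic reticulum. It had 32.5, 56.3, 40.4 and 24.2 CPM in saline, 48.5, 28.3, 39.1 and 31.2 CPM in Malat1 ASO, 20.8 through 35.9 to 50.9 CPM in anti-TfR:Malat1, and 37.7, 57.2 and 33.3 CPM in OTV:Malat1. The saline animals alone spanned most of the range of the series. Xbp1, whose message IRE1 splices into that of an active factor, stood at 18.9, 23.2, 19.0 and 15.5 CPM in saline, 23.7, 16.5, 17.5 and 15.5 CPM in Malat1 ASO, 16.4 through 17.6 to 23.3 CPM in anti-TfR:Malat1, and 17.7, 24.9 and 20.3 CPM in OTV:Malat1. Counts per gene do not tell the spliced from the unspliced form.

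Atf4 encodes the factor whose translation rises when eIF2 is phosphorylated. Its RNA stood at 9.71, 14.4, 15.8 and 10.6 CPM in saline, 11.7, 11.7, 12.3 and 11.6 CPM in Malat1 ASO, 9.38 through 10.8 to 14.3 CPM in anti-TfR:Malat1, and 12.4, 18.9 and 9.33 CPM in OTV:Malat1. Ddit3, which encodes the death-linked factor CHOP, had 6.00, 7.38, 6.54 and 6.00 CPM in saline, 6.28, 6.29, 5.71 and 5.91 CPM in Malat1 ASO, 5.18 through 6.64 to 7.14 CPM in anti-TfR:Malat1, and 5.59, 9.14 and 6.07 CPM in OTV:Malat1. For both genes the Malat1 ASO animals lay closest together, and OTV:Malat1 replicate 2 was the highest library.

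**Figure D1:**
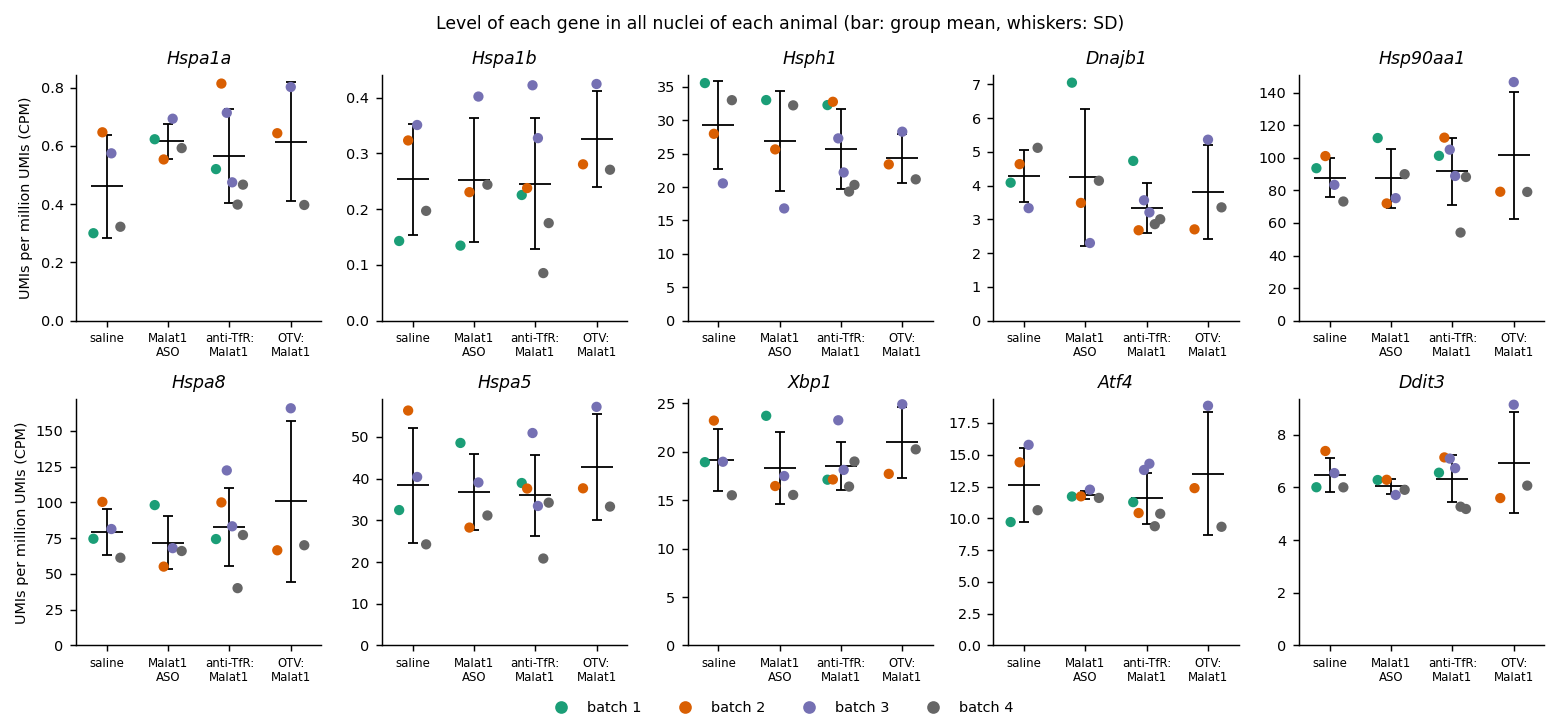
Level of each of the 10 genes in CPM (vertical axis, from 0) over all nuclei of each of the 17 animals, by treatment group; bars show group means, whiskers the SD, and points single animals. The groups overlap in every panel, and the highest Hspa8 point, at 166 CPM, is OTV:Malat1 replicate 2. Of all genes with a UMI in the groups compared, 1.87% had ranges apart between the conjugates. The shares apart from saline were 0.69% for Malat1 ASO, 0.385% for anti-TfR:Malat1 and 3.76% for OTV:Malat1. Overlap is thus not a result about these genes.

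The comparisons with saline ask whether repeated dosing with the free or carried oligonucleotide left a stress response in the brain, and none of the 10 genes passed the test over all nuclei. All 10 passed the filter on low counts. Neurons made up 58.1% to 75.9% of the nuclei of an animal, and the part of that spread in these sums was not tested beyond the fits by label. In Malat1 ASO against saline, 0 of 10 were called at an adjusted p under 0.05 by edgeR's quasi-likelihood test, where 0% of the 21375 genes tested were called. The same count, 0 of 10 beside a background of 0%, held for each conjugate set against saline, anti-TfR:Malat1 first and OTV:Malat1 next, and for the direct comparison of the conjugates. None of these 40 member tests had an unadjusted p under 0.05, by edgeR or by DESeq2, which called 0 members too. In the order of the comparisons, 129, 258, 237 and 345 of all genes had an unadjusted p under 0.05 by edgeR. Without any difference a share of 0.05 of the genes would be expected there, and each count is below that share. The lack of small p values is thus not particular to the members.

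In Malat1 ASO against saline the 10 fitted log2 changes ran from -0.14 (Hspa8, SE 0.29) to 0.42 (Hspa1a, SE 0.28, adjusted p = 1.00 by edgeR). Their median was -0.06. In anti-TfR:Malat1 against saline they ran from -0.34 (Dnajb1, SE 0.24) to 0.33 (Hspa1a, SE 0.26), with a median of -0.02. In OTV:Malat1 against saline they ran from -0.35 (Hsph1, SE 0.23) to 0.34 (Hspa1a, SE 0.31), with a median of 0.07. Directly compared, the conjugates gave changes (OTV:Malat1 minus anti-TfR:Malat1) of -0.19 (Hsph1, SE 0.21) to 0.30 (Hspa1b, SE 0.40), with a median of 0.08. A missed threshold does not show that levels were equal, and the 95% intervals set what could have been missed in this fit. It had no batch term, and fewer of all genes than expected had an unadjusted p under 0.05 in it, as given above. Of the 40 intervals, 37 lay within 1 log2 unit of 0 on both sides, and their widths to either side ran from 0.257 to 0.918.

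The sign of most OTV:Malat1 differences turned with 1 animal. With all 17 animals, 8 of the 10 genes had a fitted change above 0 against saline and 9 of 10 against anti-TfR:Malat1. Without OTV:Malat1 replicate 2 these counts were 2 and 1, and Hspa8 against saline went from 0.25 (SE 0.31) to -0.24 (SE 0.30). Within batches, Hspa8 was lower in OTV:Malat1 than in saline in batch 2 (66.5 against 100.4 CPM), and higher in batch 3 (166 against 81.4 CPM) and batch 4 (70.1 against 61.3 CPM), with 1 animal on each side. The part of that animal's ribosomal protein and Fos levels, given above, in these differences was not tested. With batch as a term in the fit and all 17 animals kept, 7 of 10 genes were above 0 in OTV:Malat1 against saline, 8 between the conjugates and 3 in anti-TfR:Malat1 against saline. The 40 changes then ran from -0.34 to 0.47 and 0 members were called; 1 had an unadjusted p under 0.05, Hspa1a in Malat1 ASO against saline (0.47, SE 0.22, adjusted p = 1.00 by edgeR). With the replicate number as a block, which does not pair the OTV:Malat1 animals with those of either group by batch, the counts were 6, 2 and 9 in the same order, with 0 called. The share of all genes above 0 is not set beside any of these counts of signs. Several members also moved together across animals, as given below. The counts, and their turn without OTV:Malat1 replicate 2, are thus not a result about the members.

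**Figure D2:**
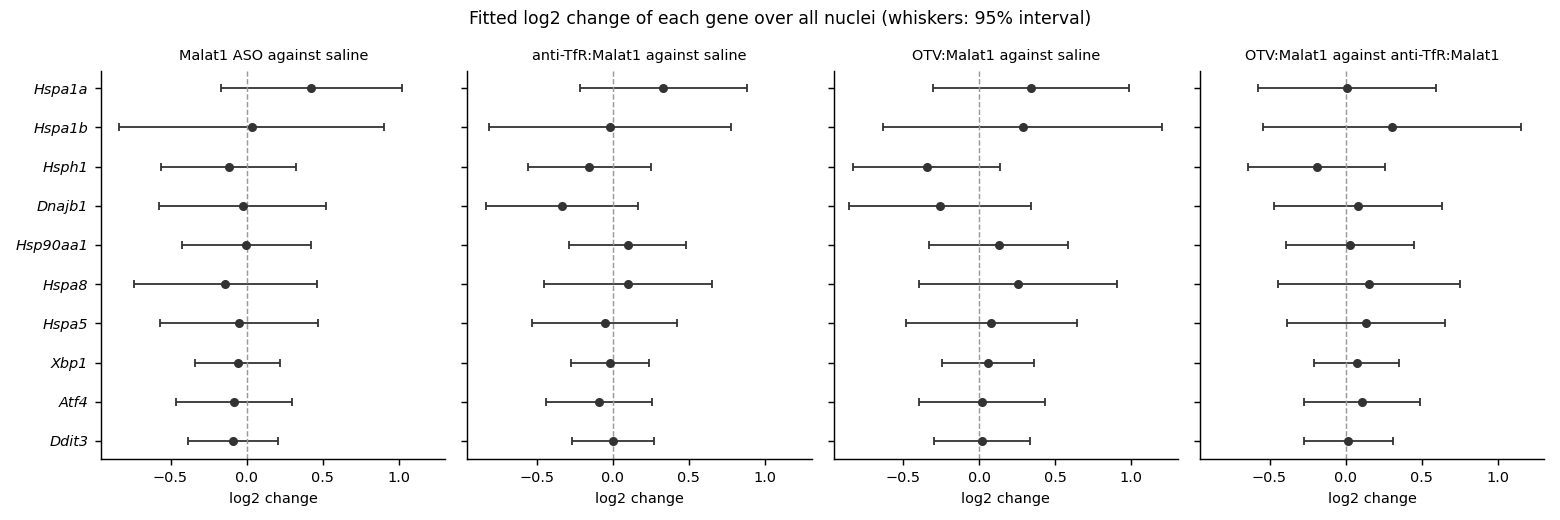
Fitted log2 change (horizontal axis) of each of the 10 genes over all nuclei in the 4 comparisons, as points with 95% intervals as whiskers. Every interval crosses the dashed line at 0, and the widest belong to Hspa1b, the gene with the fewest UMIs.

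No gene of the wider pathway lists was called in any of the 4 comparisons. Of 28 other heat shock factor targets and cytosolic chaperones, all were tested and 0 were called in either direction, with median log2 changes of -0.06, -0.06, -0.00301 and 0.07 in Malat1 ASO, anti-TfR:Malat1 and OTV:Malat1 against saline and in the comparison of the conjugates (OTV:Malat1 minus anti-TfR:Malat1). Over all genes tested the medians were -0.00720, -0.00264, -0.00071 and 0.00788. The 2 genes of smallest p against saline were Hspa2 and Dnaja1 in Malat1 ASO (-0.27, SE 0.25, and -0.12, SE 0.14), Stip1 and St13 in anti-TfR:Malat1 (-0.19, SE 0.12, and -0.11, SE 0.09) and Ahsa2 and Chordc1 in OTV:Malat1 (-0.24, SE 0.12, and -0.14, SE 0.08). Stip1 and St13 encode co-chaperones that bridge HSP70 and HSP90 or steady HSP70, and Ahsa2 is a relative of an HSP90 activator. Between the conjugates, the value for Hspa4l, an HSP110, was -0.12 (SE 0.07).

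In the list for the unfolded protein response and chaperones of the endoplasmic reticulum, 0 of 26 genes were called, with medians of -0.02, -0.04, 0.00589 and 0.03. The genes of smallest p were Ern1, which encodes IRE1 (-0.09, SE 0.08), and Crebrf (0.05, SE 0.06) in Malat1 ASO, and Edem1 (-0.13, SE 0.08) and Syvn1 (-0.16, SE 0.12), both of the disposal of misfolded proteins, in anti-TfR:Malat1. In OTV:Malat1 against saline they were Ern1 (-0.12, SE 0.08) and Derl3, a derlin gene of that disposal (0.37, SE 0.30). Against anti-TfR:Malat1 they were Derl3 (0.55, SE 0.28) and Crebrf (-0.08, SE 0.06).

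In the integrated stress response list, 0 of 28 genes were called, with medians of -0.03, -0.02, 0.07 and 0.08. Trib3, a pseudokinase gene induced by ATF4 and CHOP, had the smallest p in OTV:Malat1 against saline (0.54, SE 0.25, adjusted p = 1.00 by edgeR), from 0.442 ± 0.0914 CPM in saline (SD, n = 4) and 0.680 ± 0.166 CPM in OTV:Malat1 (n = 3). Stc2 came next (0.33, SE 0.22). Atf5, a factor close to ATF4, had the smallest p between the conjugates (0.30, SE 0.14, adjusted p = 1.00 by edgeR). Atf3, a factor induced in many stresses, had the smallest p in Malat1 ASO (-0.61, SE 0.34) and in anti-TfR:Malat1 (-0.48, SE 0.30), followed by Cebpb (-0.17, SE 0.22) and by Eif4ebp1 (0.26, SE 0.16), while Mthfd2 came next between the conjugates (0.17, SE 0.12). Of 16 immediate early genes, which tissue handling can move, 0 were called, with medians of -0.21, -0.24, -0.23 and -0.03 and 2, 0, 1 and 7 genes above 0. The share of all genes above 0 is not set beside these counts either. Those of smallest p were Fosl2 (-0.44, SE 0.43) and Ier2 (-0.30, SE 0.29) in Malat1 ASO, Arc (-0.40, SE 0.22) and Junb (-0.34, SE 0.27) in anti-TfR:Malat1, Egr3 (-0.77, SE 0.47) and Fosl2 (-0.77, SE 0.47) in OTV:Malat1, and Jun (0.24, SE 0.18) and Nr4a3 (-0.71, SE 0.58) between the conjugates.

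Within the deposited cell type labels the result was the same. Neurons let all 10 members be tested, Oligodendrocytes 8, Microglia 7, Astrocytes 6, Vascular cells 3 and Perivascular macrophages 2; the rest fell under the filter on low counts, and nuclei labelled Glia were too few to test, with 20 or more in 5 animals. Together with all nuclei this gave 184 member tests, of which 0 were called by edgeR. The background was 0% in neurons, vascular cells and perivascular macrophages for all 4 comparisons, and 0% in oligodendrocytes, astrocytes and microglia for Malat1 ASO and anti-TfR:Malat1 against saline. It was 0.0208% in oligodendrocytes, 0.0117% in astrocytes and 0.011% in microglia for OTV:Malat1 against saline, and 0.00694%, 0.0117% and 0% in the same 3 labels between the conjugates.

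A single member test had an unadjusted p under 0.05, that of Hspa1a in neurons of Malat1 ASO against saline. The saline animals had 0.206, 0.491, 0.496 and 0.180 CPM, and the Malat1 ASO animals 0.581, 0.520, 0.694 and 0.523 CPM, from 9 to 45 UMIs per animal. The groups did not overlap, as was so for 1 of the 10 members and for 0.761% of all genes with a UMI in these groups, and the gap between them ran from 0.496 to 0.520 CPM, and in each of the 4 batches the Malat1 ASO animal was above the saline animal. The fitted change was 0.76 (SE 0.31, adjusted p = 1.00 by edgeR). In the same neurons anti-TfR:Malat1 ran from 0.396 to 0.713 CPM and OTV:Malat1 had 0.577, 0.698 and 0.357 CPM. Both overlapped saline, where 0.389% and 3.76% of all genes with a UMI in either group had ranges apart. Against a background of 0% called in neurons, the Hspa1a difference in Malat1 ASO stands as 1 gene with few counts.

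In small labels ranges also stayed apart in 4 cases, at 0 to 11 UMIs per animal. In astrocytes, Ddit3 had 8.74, 13.1, 5.34 and 0 CPM in saline against 14.1, 18.1 and 15.9 CPM in OTV:Malat1, and Dnajb1 had 2.38, 7.88, 2.67 and 4.90 CPM against 1.76, 1.65 and 2.27 CPM. The Dnajb1 values of OTV:Malat1 were 1 UMI in each animal. Hsph1 was apart in vascular cells between saline (40.9, 39.7, 31.0 and 31.5 CPM) and Malat1 ASO (16.4, 0, 8.74 and 16.8 CPM), and in perivascular macrophages between saline (17.5, 23.3, 25.9 and 0 CPM) and OTV:Malat1 (61.8, 37.7 and 135 CPM). That made 2 of 10 members in astrocytes, where 4.88% of all genes with a UMI in either group had ranges apart, 1 of 10 in vascular cells (2.11%) and 1 of 10 in perivascular macrophages (3.36%). None of these passed the filter on low counts in that label, so they were not tested and are given as counts alone.

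Some of these genes differed between the deposited batches. With treatment kept in the model, 2 of 10 members differed between the 4 batches over all nuclei (edgeR F test, adjusted p under 0.05), beside 21.7% of all genes. Atf4 averaged 10.9, 12.2, 15.0 and 10.3 CPM in batches 1 to 4, a fitted range of 0.52 on the log2 scale (adjusted p = 0.00622 by edgeR). Hspa1b averaged 0.168, 0.268, 0.386 and 0.194 CPM, a range of 1.20 (adjusted p = 0.0177 by edgeR). Both were highest in batch 3. The share of members called was near that of all genes and is not a result about them. Without OTV:Malat1 replicate 2, which belongs to batch 3, the same 2 of 10 were called beside 18.3% of all genes, and batch 3 stayed the highest for both, at 14.0 CPM for Atf4 (adjusted p = 0.0160 by edgeR) and 0.376 CPM for Hspa1b (adjusted p = 0.0283 by edgeR). Leaving out each animal in turn gave 1 to 4 members called, beside 2902 to 5289 of all genes.

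Hspa1a averaged 0.481, 0.664, 0.652 and 0.435 CPM in the same batches and missed the threshold (range 0.65, adjusted p = 0.0619 by edgeR). Hspa5 averaged 40.0, 40.0, 44.2 and 28.7 CPM and also missed it (range 0.60, adjusted p = 0.0886 by edgeR). Hspa8 averaged 82.4, 80.5, 104 and 62.9 CPM, with a range of 0.67 (adjusted p = 0.147 by edgeR). In all 3, batch 4 had the lowest mean. Leaving out OTV:Malat1 replicate 2, the batch 3 means of Hspa1a and Hspa8 were 0.614 and 88.8 CPM, and all 3 genes again missed the threshold (adjusted p of 0.0852, 0.154 and 0.340 by edgeR). Hsph1 and Dnajb1 instead had their highest mean in batch 1, at 33.6 and 5.29 CPM, with adjusted p of 0.262 and 0.228 by edgeR.

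By label, batch called 2 of 10 members in neurons (background 20%), 0 of 8 in oligodendrocytes (13.1%), 0 of 6 in astrocytes (1.38%), 1 of 7 in microglia (2.58%), 0 of 3 in vascular cells (0.151%) and 0 of 2 in perivascular macrophages (1.41%). In neurons they were Atf4 and Hspa1b, as over all nuclei, and in microglia Hspa8 (range 0.88, adjusted p = 0.0347 by edgeR). Over all nuclei batch also called 8 of 28 heat shock and chaperone genes, 9 of 26 of the unfolded protein response list, 5 of 28 of the integrated stress response list and 0 of 16 immediate early genes, beside the 21.7% of all genes called there. The listed genes of smallest p were Dnajb4, an HSP40 (range 0.47), Eif2ak4, the amino acid sensor GCN2 (0.29), Slc7a11, the cystine transporter (0.94), Cebpb (0.62) and Creld2, an endoplasmic reticulum stress gene (0.72). Dnajb4, Cebpb and Creld2 had their highest fitted level in batch 3, as Atf4 and Hspa1b had, while Slc7a11 and Eif2ak4 were highest in batch 1.

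Between cell types the answer depended on the scale. As a share of all UMIs, Hspa8 stood at 249 ± 105 CPM in vascular cells (SD, n = 17 animals), 230 ± 93.9 in microglia, 224 ± 83.4 in perivascular macrophages, 191 ± 75.2 in oligodendrocytes, 157 ± 57.5 in astrocytes and 68.4 ± 22.6 in neurons. Neighbours in this order differed by less than their SD except for astrocytes and neurons. That SD is a spread over the same 17 animals in each label. Neighbours other than astrocytes and neurons were not compared within animals. As UMIs per nucleus, the means were 0.329 in vascular cells, 0.245 in microglia, 0.254 in perivascular macrophages, 0.270 in oligodendrocytes, 0.293 in astrocytes and 0.346 in neurons. On that scale neurons, the lowest by CPM, had the highest mean. Nuclei labelled Neurons held 5017 UMIs on average, against 1077 in microglia, 1147 in perivascular macrophages, 1329 in vascular cells, 1433 in oligodendrocytes and 1951 in astrocytes. A higher share of the total and fewer UMIs of other genes cannot be told apart in these sums.

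Tested within animals on the TMM scale, 6 members passed the joint filter (Hspa8, Hsp90aa1, Hsph1, Hspa5, Xbp1 and Atf4). In oligodendrocytes 5 of 6 were higher than in neurons, where 44.8% of all genes were, and 0 were lower, where 45.8% were. The differences were 1.38 for Hsp90aa1 (SE 0.04), 1.29 for Hspa8 (SE 0.04), 0.86 for Hspa5 (SE 0.04), 0.39 for Atf4 (SE 0.05) and 0.27 for Xbp1 (SE 0.05), each on the log2 scale. Hsph1 was at 0.07 (SE 0.05, adjusted p = 0.173 by edgeR). Astrocytes had 3 of 6 higher (background 42%) and 1 lower (37.5%), and microglia 4 higher (39%) and 1 lower (47.6%). Vascular cells had 4 higher (28.9%) and 1 lower (38.4%), and perivascular macrophages 4 higher (20.7%) and 0 lower (43.8%).

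Hspa8, Hsp90aa1 and Hspa5 were higher in each of the 5 labels, with Hspa8 at 0.83 to 1.29, Hsp90aa1 at 0.42 to 1.38 and Hspa5 at 0.53 to 1.11. The member that was lower on the TMM scale was Hsph1 each time, at -0.38 in astrocytes (SE 0.11), -0.62 in microglia (SE 0.11) and -0.85 in vascular cells (SE 0.26). By CPM without TMM its ratio of means to neurons was 0.885 in astrocytes, 1.01 in microglia, where 10 of 17 animals were above neurons, and 0.868 in vascular cells. The lower call in microglia thus depends on the scaling. Values in other labels also differed with the scaling. For Hsph1 by CPM, 7 of 17 animals in astrocytes and 6 of 17 in vascular cells were above neurons. Atf4 in microglia had a CPM ratio of 1.72, with 17 of 17 animals above neurons. On the log2 TMM scale it was at 0.145 (SE 0.12, adjusted p = 0.230 by edgeR) and was not called. In perivascular macrophages the CPM ratio was 2.42 for Hsp90aa1 and 1.33 for Hsph1, against 0.42 and -0.50 on the log2 TMM scale. Xbp1 was higher in microglia (0.82, SE 0.08) and vascular cells (1.07, SE 0.17). Atf4 was higher in perivascular macrophages (0.67, SE 0.30, adjusted p = 0.0446 by edgeR). Per nucleus, chosen as a scale after the data had been seen, all 6 genes had a lower mean than neurons in each of the 5 labels, though for Hspa8 in vascular cells only 10 of 17 animals did. On that scale 92% of all 11076 genes tested were lower than in neurons in oligodendrocytes, 84.6% in astrocytes, 89% in microglia, 86.3% in vascular cells and 87.5% in perivascular macrophages, so this count is not a result about the members. Snap25, a synaptic gene that glia should lack, was at 0.228 to 0.277 UMIs per nucleus in the 5 labels and 4.61 in neurons. Mean Hspa8 per nucleus was 0.708 to 0.951 of that in neurons, and the part of RNA from other nuclei, free or in nuclei called doublets, in the member levels was not tested.

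**Figure D3:**
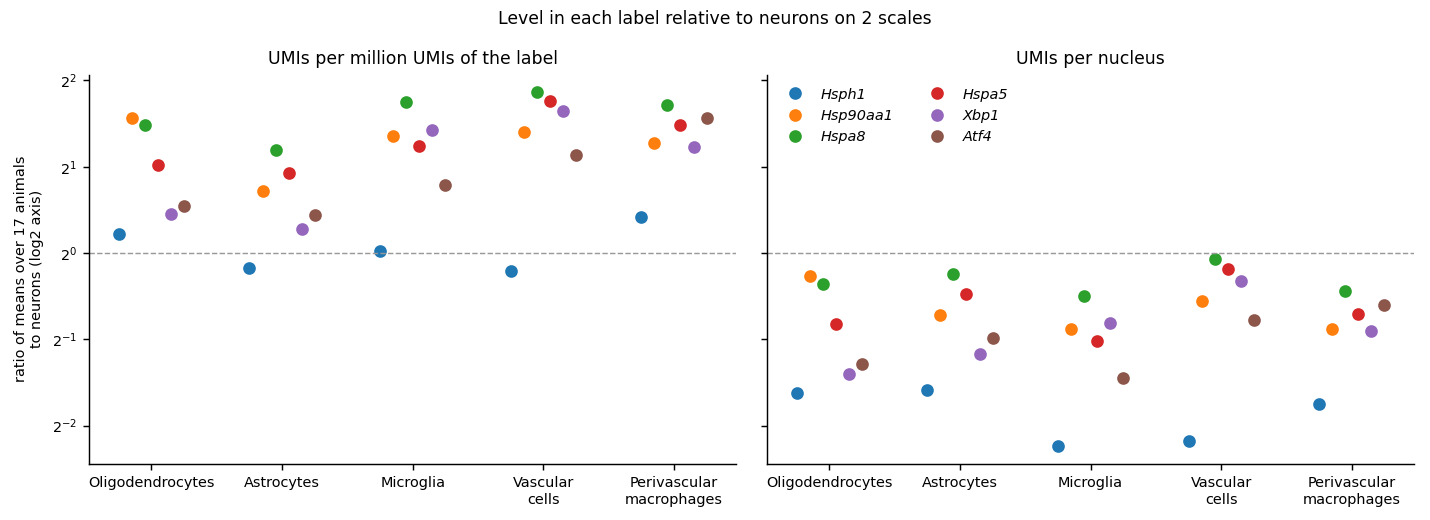
Ratio of the mean level over 17 animals in each label to that in neurons (vertical axis, log2 scale) for the 6 genes tested, as CPM on one side and as UMIs per nucleus on the other. By CPM most points lie above the line at 1, whereas per nucleus all lie under it.

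The deposited clusters show the same difference between the scales at finer grain. In the 19 clusters with nuclei from all 17 animals, Hspa8 ran from 51.9 CPM in cluster 6 to 251 CPM in cluster 2, a 4.84-fold range, and from 0.235 to 0.439 UMIs per nucleus, a 1.86-fold range. The clusters' mean depth ran from 938 to 8448 UMIs per nucleus. Over these 19 points, which share libraries, Spearman's rho of depth with Hspa8 was -0.96 by CPM and 0.88 per nucleus. Hsp90aa1 (-0.93 and 0.80), Hspa5 (-0.87 and 0.88) and Xbp1 (-0.81 and 0.95) had the same pattern. Over all 21375 genes the median rho was -0.05 by CPM and 0.82 per nucleus, and 0.477% of genes had a rho by CPM at or under that of Hspa8, whereas 36.3% had one per nucleus at or above it. Depth and cell type cannot be told apart over these clusters, and depth is also the denominator of CPM. By CPM, Hspa1a (-0.79), Ddit3 (-0.77), Atf4 (-0.71), Hspa1b (-0.54) and Dnajb1 (-0.45) came next. Hsph1 was nearest the median of all genes by CPM, with rho -0.10, where 47.3% of genes were at or under it. Per nucleus its rho was 0.97, where 4.46% of genes were at or above it. Its CPM ran from 18.9 in cluster 16 to 36.0 in cluster 13, the narrowest range of the 10 genes by fold (1.90).

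**Figure D4:**
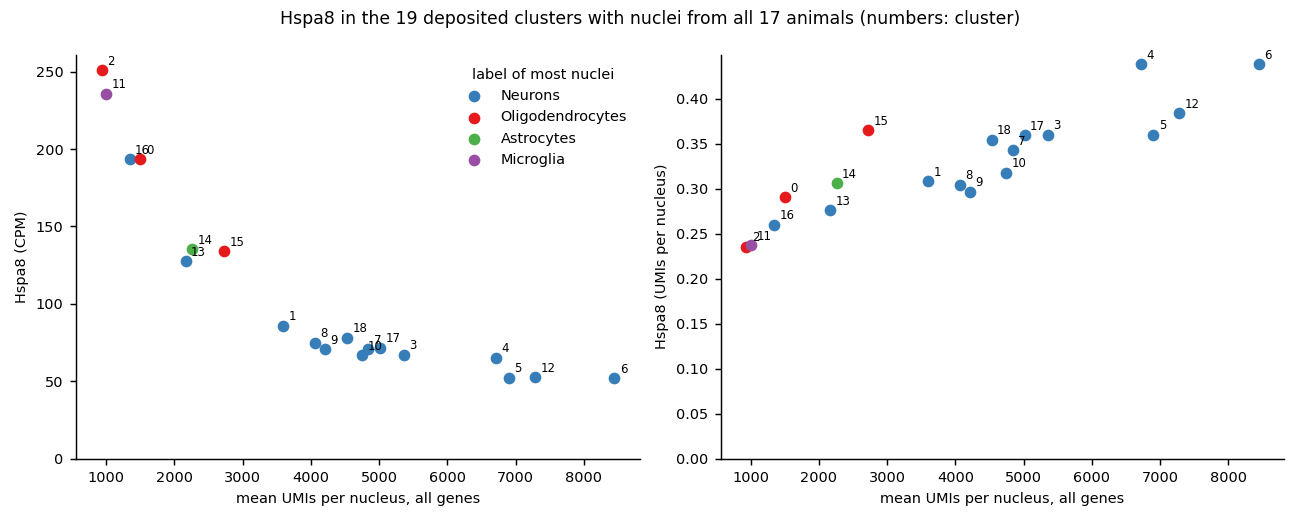
Hspa8 in the 19 clusters (points, numbered, coloured by the label of most of their nuclei) against mean UMIs per nucleus of all genes (horizontal axis), as CPM and as UMIs per nucleus. CPM falls with depth from 251 to 51.9, while UMIs per nucleus stay between 0.235 and 0.439.

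Across the 17 animals some of the members moved together. Of 8 relations examined, 5 passed the threshold, with r of 0.61 or more, which 6.08% of all pairs of the 21375 genes tested also reached, and 3, all between heat shock genes, missed it (log2 of CPM plus 1, permutation tests of 100000 draws, two-sided, adjusted over the 8). Hspa8 and Hsp90aa1 were related with Pearson's r of 0.94 (p = 1e-05, the smallest the draws can give, adjusted p = 8e-05) and Spearman's rho of 0.85 (adjusted permutation p = 1.6e-04). Hspa8 and Hspa5, chaperones of the cytosol and the endoplasmic reticulum, had r of 0.88 (permutation p = 2e-05, adjusted p = 8e-05) and rho of 0.82 (adjusted permutation p = 6e-04). Hspa5 and Xbp1 had r of 0.84 (permutation p = 3e-05, adjusted p = 8e-05) and rho of 0.77 (adjusted permutation p = 0.00133). With values centred on batch, r was 0.97, 0.84 and 0.82 for these pairs, and without the 2 animals farthest from the median it was 0.84, 0.81 and 0.84. Without OTV:Malat1 replicate 2 it was 0.90, 0.87 and 0.80.

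Atf4 and Ddit3, factor and target, had r of 0.73 (permutation p = 0.00113, adjusted p = 0.00226) and rho of 0.55 (adjusted permutation p = 0.0378). Centred on batch r was 0.59 (adjusted permutation p = 0.0240), but rho was 0.38 and missed the threshold (adjusted permutation p = 0.190). Without OTV:Malat1 replicate 2, r was 0.55 (adjusted permutation p = 0.0486) and rho 0.46 (adjusted permutation p = 0.118). Without the 2 animals farthest from the median r was 0.56 (adjusted permutation p = 0.0580), so the relation rests in part on those animals. Hspa1a and Hspa1b had r of 0.61 (permutation p = 0.00918, adjusted p = 0.0147) and rho of 0.61 (adjusted permutation p = 0.0207). Centred on treatment group, r was 0.66 (adjusted permutation p = 0.00747). With values centred on batch the pair missed the threshold, with r of 0.33 (adjusted permutation p = 0.266) and rho of 0.37 (adjusted permutation p = 0.190). A missed threshold does not show that the relation was absent there. Without the 2 farthest animals r was 0.54 (adjusted permutation p = 0.0580). Without OTV:Malat1 replicate 2, r was 0.54 (adjusted permutation p = 0.0486) and rho 0.56 (adjusted permutation p = 0.0530). That pair may also share reads, as given above.

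The other 3 pairs of heat shock genes missed the threshold. For Hspa1a with Dnajb1, r was -0.06 and rho -0.09 (permutation p = 0.824 and 0.736, adjusted p = 0.941 and 0.841). For Hspa1a with Hsph1, r was 0.01 and rho 0.02 (adjusted permutation p = 0.978 and 0.943). Hsph1 and Hspa8 had r of 0.32 (adjusted permutation p = 0.283) and rho of 0.24 (adjusted permutation p = 0.469), and centred on batch r was 0.58 (adjusted permutation p = 0.0252). As a description chosen after the values of all member pairs were seen, Hsph1 ran with Dnajb1 at r 0.69 (0.63 centred on batch) and with Hsp90aa1 at 0.54 (0.63). Without the 2 farthest animals the 3 pairs that missed had r of 0.15, 0.44 and 0.10. Batches held 3 to 5 animals, too few for a value within each.

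The genes most like the mean of the 6 heat shock members, among 9785 genes of at least 10 CPM and with values centred on batch, were Map1lc3b (r 0.97), which encodes an autophagosome protein, Pfdn2 (0.96), of the prefoldin chaperone, Fbxo9 (0.96), Aplp2 (0.96) and Sar1a (0.95), a GTPase of export from the endoplasmic reticulum. Those most like Hspa5 were Calr (0.95), Fkbp2 (0.95) and Hsp90b1 (0.95), which encode folding proteins of the endoplasmic reticulum, and Enpp5 (0.93) and Cisd1 (0.92). These r are over 17 animals and describe the ranking alone. Their r were 0.92 to 0.95 without OTV:Malat1 replicate 2. Calr ran from 19.4 to 45.9 CPM and Hsp90b1 from 50.0 to 94.2 CPM across the animals.

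Several members also moved with the ribosomal protein genes, a relation examined after the data had been seen. The summed level of 83 such genes ran with Hspa8 at r 0.96 and rho 0.91 (adjusted permutation p = 5e-05 and 1e-04, over the 10 members), with Hspa5 at r 0.90 and with Hsp90aa1 at r 0.87. Ddit3 (0.81), Xbp1 (0.78), Atf4 (0.77), Hspa1a (0.72) and Hspa1b (0.69) also passed, whereas Dnajb1 (0.26, adjusted permutation p = 0.346) and Hsph1 (0.18, adjusted permutation p = 0.496) did not. Of 21293 genes tested over all nuclei, ribosomal protein genes left out, 11% had an r at or above that of Hspa1b, the lowest of the 8 members that passed, 2.01% one at or above that of Hspa5, and 0.254% one at or above that of Hspa8, beside a median r of 0.12. The same 8 passed without OTV:Malat1 replicate 2, at r of 0.62 (Hspa1b) to 0.94 (Hspa8). For Hspa8 r was 0.97 centred on batch, 0.94 in neurons alone and 0.91 without the 2 animals farthest from the median. Hspa1b fell to 0.46 without those 2 animals (adjusted permutation p = 0.105). The ribosomal sum is a part of the same totals as the members, and what sets it was not tested.

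**Figure D5:**
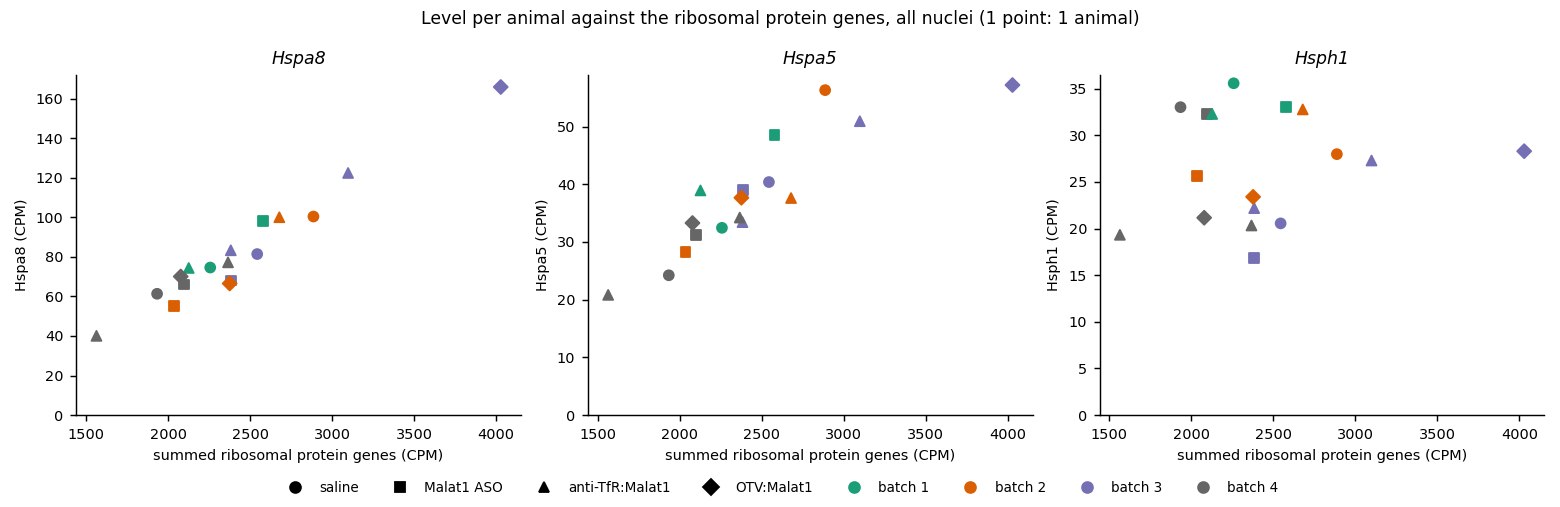
Level per animal of members (vertical axis, CPM) against the summed level of 83 ribosomal protein genes (horizontal axis, CPM) over all nuclei; each point is 1 animal, its shape the treatment group and its colour the batch. Hspa8 rises along the axis to OTV:Malat1 replicate 2 at 4029 and 166 CPM, and the treatment groups are interleaved.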

How the data were processed

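Per the labels' protocols, nuclei were freed from frozen tissue by douncing, stained with DAPI, sorted and captured with the 10x Genomics system. Per the submitters' processing notes, Cell Ranger 6.0.1 and Seurat 4 were used, with the mm10 build. The authors deposited whole-number UMI counts per gene and nucleus, 284074 nuclei of at least 500 UMIs, and the counts of each nucleus summed to the total they deposited. Cell type labels, cluster numbers, batches and doublet calls (47758 nuclei, 16.8%, kept here) were taken as the authors deposited them, and 12 metadata columns were not used.

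For each animal, counts were added up over all nuclei and over each label with 20 or more of its nuclei. They were tested with edgeR 4.0.16 in R 4.3.3 (filterByExpr, TMM scaling, glmQLFit, glmQLFTest), all 17 animals fitted by treatment group. Two-sided p values were adjusted over all genes tested (Benjamini-Hochberg), with a threshold of 0.05. Batch was tested with treatment in the model, and labels were set against neurons with animal as a block. Relations used log2(CPM + 1) in Python 3.11.15 (scipy 1.17.1, numpy 2.4.6). Alternatives included DESeq2 1.42.0. The scripts were tested on simulated data. The members and lists were chosen with earlier results of these data known. Listed genes were named by the smallest p in each list and comparison, since none was called; 1 gene so chosen is not reported here. Malat1 is named as the target, and genes alike by the 5 highest r.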

Additional observations from a re-analysis of the deposited data

Results flagged for a closer look

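Of 90 groups of 4 to 6 animals examined, 10 members in all nuclei, neurons and oligodendrocytes, 4 held an animal far from the rest of its group, and chance gives about 1 in 20. Xbp1 in neurons was highest in Malat1 ASO replicate 1, at 23.2 CPM against 14.9 to 16.3 CPM in the rest of that group. It was also highest in anti-TfR:Malat1 replicate 3, at 22.1 CPM against 15.5 to 17.6 CPM. Ddit3 in neurons was lowest in Malat1 ASO replicate 3, at 5.11 CPM against 5.71 to 5.79 CPM. Hspa1a in oligodendrocytes was highest in anti-TfR:Malat1 replicate 2, at 2.65 CPM against 0.155 to 0.985 CPM, from 17 UMIs in that animal. The cause was not tested for any of these.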

How the results depend on the processing

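Over 4848 alternative values of the members' log2 changes, 0 were called, and the smallest adjusted p by edgeR or DESeq2 was 0.702. Over all nuclei these changes ran from -0.53 to 0.63 under any setting. Same-numbered animals shared a deposited batch in 4 of 4 pairs of Malat1 ASO and saline (deviations correlated at -0.09 to 0.72, 3 of 4 best with their own number), in 3 of 4 of anti-TfR:Malat1 and saline (-0.43 to 0.56), and in 0 of 3 with OTV:Malat1 against either group (-0.46 to 0.62), so over the whole design the replicate number is not a pairing. With a replicate block, the member changes over all nuclei ran from -0.33 to 0.51, with 0 called and a smallest p of 0.0602 by edgeR; with a batch block the smallest was 0.0495, for Hspa1a in Malat1 ASO against saline (adjusted p 1.00). The cause was not tested for the changes below, except where fewer genes or samples make them.

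Counts of all genes called moved in small ways. Over all nuclei, DESeq2 called 1 gene in OTV:Malat1 against saline. In oligodendrocytes that comparison went from 3 to 1 under DESeq2, no filter, the replicate block, only the 2 groups compared, or nuclei of 1000 or more UMIs, and to 1 to 4 without 1 animal. OTV:Malat1 against anti-TfR:Malat1 there went to 0 with Malat1 left out of totals and 1 to 2 without 1 animal. In astrocytes, with no filter the 4 comparisons gave 7, 2, 12 and 8 genes, with a batch block anti-TfR:Malat1 against saline gave 1, and both OTV:Malat1 comparisons gave 0 with Malat1 left out. Without 1 animal, astrocytes gave 0 to 1, 1 to 2 and 0 to 1 genes in the last 3 comparisons. In microglia, no filter gave 5 genes for Malat1 ASO against saline and 3 between the conjugates, where a batch block gave 1. OTV:Malat1 against saline there, where only Malat1 was called, gave 0 with Malat1 left out, only 2 groups, without doublets, or labels joined with clusters. Without 1 animal it gave 0 to 1. In vascular cells, no filter gave 12, 3, 19 and 8 genes, the replicate block 1 and 3 in the OTV:Malat1 comparisons, and leaving out 1 animal 0 to 3 in OTV:Malat1 against saline. In perivascular macrophages, no filter gave 7 genes for Malat1 ASO and 2 for each OTV:Malat1 comparison, the batch and replicate blocks 1 each in OTV:Malat1 against saline, and leaving out 1 animal 0 to 1 for Malat1 ASO and 0 to 1 for OTV:Malat1 against saline.

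Members called by batch ran from 1 (without Malat1 ASO replicate 3 or anti-TfR:Malat1 replicate 3) to 4 (without Malat1 ASO replicate 2), and genes called by batch from 2902 (without saline replicate 3) to 5289. The share of all genes called is not set beside each member count, so these counts are not a result about the members. Against neurons, oligodendrocytes had 8 members higher with labels joined with clusters, where 8 were tested and 44.4% of all genes were higher. Per nucleus, added after seeing the data, 0 members were higher and 6 lower in each of the 5 labels, where 84.6% to 92% of all genes were lower. Hspa1a with Hspa1b fell to r 0.33 centred on batch, 0.47 in neurons and 0.54 without the 2 farthest animals, and Atf4 with Ddit3 to 0.56 without them. Past the threshold came Hspa1a with Hsph1 in oligodendrocytes (0.52) and Hsph1 with Hspa8 centred on batch (0.58) and in oligodendrocytes (0.55). Joined labels gave no value for vascular cells and perivascular macrophages, and 1000 or more UMIs none for the latter. Depth limits the small labels, where most members had few UMIs per animal.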
